A study of Equus caballus with 32 samples.

Results

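In the blood of 32 Welsh Pony mares, 63 array probes stood at 2 separate levels, with no mare in between. They were chosen on their own values. For each of 43987 probes the relative level was the log2 of its signal over the 75th percentile of its array, so that 1 unit is a doubling. The extraction software marked each spot that was well above background, and a probe needed that mark on 8 or more of the 16 arrays from a weaning type, which 26368 probes had. The 32 levels of each probe were then sorted, and a gap of 1.5 or more between neighbouring mares, with at least 3 mares on each side, was required. 73 probes passed. The 10 of them annotated as DRB (6 probes), ECATH-3 (3) and EQMHCC1 (1) were set aside by name; no probe of EPCAM, also on that list of names, passed. The remaining 63 are 0.239% of the probes that passed the filter. The gap and the side of each mare are therefore descriptions, with no test attached.

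All samples were whole venous blood taken 30 days after weaning, from 16 mares weaned in the way the labels call brutal and 16 in the way they call progressive. The labels describe neither procedure further, give no age, and link no mare of one group with a mare of the other. Each mare gave 1 single-colour array, and the 32 arrays lay on 4 slides, each with 4 mares per weaning type. Transcripts of blood cells were present in the samples, since 5 of 6 neutrophil, 4 of 4 T cell and 5 of 5 B cell marker genes on the array stood well above background on every array.

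A probe of this kind is a DNA strand fixed to glass, and its signal depends both on how much of a transcript the blood holds and on how well that transcript pairs with the probe. A base difference between the transcript and the probe can lower the signal with no change in the amount of RNA. Genes of the major histocompatibility complex (MHC), which present peptides to T cells, differ more between individuals than most genes, in sequence and in the number of gene copies. In whole blood, fewer cells of a type and less RNA per cell cannot be told apart. The part of base differences, copy number and cell mixture in the levels below was not tested.

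The 63 probes came from 32 loci, where a locus joins probes that share a gene name or accession or overlap by at least 15 identical bases. Of these loci, 20 had 1 member probe and 12 had several. The sequences shown first are those the description turns on, printed 5′ to 3′ as windows of 30 bases from probes 60 bases long. Capitals mark only bases at which 2 probes differ. The first pair is the member probe with the widest gap on the scale used here and its near copy on the same array, from base 1 to 30 of each.
C7H19orf10, A_69_P067601: ccaagTGggaagaaatgacatgttctttcg
its near copy, A_69_P129516: ccaagCAggaagaaatgacatgttctttcg

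The next lines show M95409, an MHC class I transcript, and probes from a stretch of the assembly that holds class I genes, among them a second pair of near copies. They are shown because the same runs of bases recur in several of these probes, in part outside the windows printed.
LOC100051586, A_69_P002396, bases 16 to 45: gcttccttattgataatatgaatctggata
M95409, A_69_P006571, bases 16 to 45: attgatcatttgcttccttattgaaaatat
ENSECAT00000011411, A_69_P112591, bases 16 to 45: aatagtaatgatttgcttccttgttgaaaa
ENSECAT00000025949, A_69_P037811, bases 1 to 30: ccttgtcttaacttcatgtGgcaatgagta
ENSECAT00000025949, A_69_P115164, bases 5 to 34: ccttgtcttaacttcatgtTgcaatgagta

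Several members carry no gene name in the files, so that their sequence is their only identity. They are shown with the MHC class II probe AF348966, which is annotated as partial coding sequence and is printed whole, and with the named probe TCP11L1. The last lines are the probes of 2 loci that divided the mares identically.
AF348966, A_69_P004956: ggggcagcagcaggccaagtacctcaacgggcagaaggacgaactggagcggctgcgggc
A_69_P115387, bases 16 to 45: ctttgatccaaaacctccatggaagcaata
A_69_P116051, bases 16 to 45: gtgaccctgaactaatatgtccatggaagc
A_69_P101451, bases 16 to 45: gcttccttgccaagaatgatcattccttct
A_69_P105301, bases 16 to 45: ttgctttggcatcatcctaatagtgaataa
TCP11L1, A_69_P008946, bases 16 to 45: tcgcctggtcaactataacaagatggtctt
LOC102151022, A_69_P126331, bases 16 to 45: gtgaggaattcaaagtcactgagcagatct
CX599430, A_69_P109076, bases 16 to 45: attacctactgctgctggacaccaacatgg

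The widest gap among the 63 members, 8.69, belonged to C7H19orf10, an older symbol of MYDGF, a secreted growth factor named after myeloid cells. The DRB probes set aside by name reached 9.86. The gap of C7H19orf10 was 5.17 after normexp background correction and 6.38 in the authors' series table, and in both AF348966, described below, had the wider gap (6.22 and 6.85). The probe lies on chromosome Un (sequence not placed on a chromosome) at 297826105 to 297826164 of the EquCab1 assembly that the file headers name. After brutal weaning its relative level was -7.52 at the lowest, 2.58 at the median and 4.11 at the highest, and after progressive weaning -6.58, 2.67 and 4.40. The 27 higher mares lay between 2.22 and 4.40, all well above background. The 5 lower mares, brutal 3, 6, 7 and 14 and progressive 16, lay between -7.52 and -6.47, and in none of them was the probe well above background, so that these values are only upper bounds. Both weaning types held mares at both levels, and their ranges overlapped.

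The near copy A_69_P129516 differed from this probe by T6C and G7A, counted from 1 at the 5′ end, with the base of the member probe first. Its levels ran from -1.72 to 0.53, with a largest gap of 0.36, so that the 5 lower mares did not stand apart on it. The array holds 4 further probe pairs for the same stretch, shifted by 9 to 12 bases, in which the same 2 bases differ. For each of these pairs the difference between the probe of the C7H19orf10 sequence and its near copy was cut at its 2 largest gaps. The cut fixes the number of clusters at 3, and they held 5, 19 and 8 mares. The same cut of the unshifted pair gave clusters of 4, 1 and 27 mares. At a shift of 9 bases the clusters lay between -2.08 and -1.78, between -0.03 and 0.13, and between 1.32 and 1.64. At a shift of 12 bases they lay between -0.95 and -0.83, between 0.09 and 0.29, and between 1.15 and 1.22. The cluster of 5 was made up of the same 5 lower mares in all 4 pairs, and the cluster of 8 of the same 8 mares, brutal 9, 10, 12, 15 and 16 and progressive 2, 8 and 11. On the single probes of these pairs the gaps were narrower. The 4 shifted probes of the C7H19orf10 sequence had largest gaps of 0.25 to 0.85, each with 5 mares below it. At a shift of 9 bases these were the same 5 mares, and the levels ran from 1.92 to 5.30 over all mares. The 4 near copies had largest gaps of 0.14 to 0.40. The 3 tested probes of other genes whose levels followed C7H19orf10 most closely over the 32 arrays were FABP7 (Pearson r = 0.66) and 2 probes of LOC102149049, a leukocyte immunoglobulin-like receptor (r = -0.63 for each). Those 3 had largest gaps of 0.20 to 0.23 and did not divide the mares.

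TCP11L1, a gene of little known function related to a testis-specific protein, had a narrow gap of 1.81 at low signal. Its probe lies on chromosome Un at 251382541 to 251382600. After brutal weaning the relative level was -7.66 at the lowest, -6.48 at the median and -2.62 at the highest, and after progressive weaning -7.78, -3.81 and -2.34. The 21 lower mares lay between -7.78 and -5.63, none well above background, and the 11 higher mares between -3.82 and -2.34, all well above it. The higher level was found in 2 of 16 mares after brutal and 9 of 16 after progressive weaning, and the ranges of both types overlapped almost completely. The mean was 1.29 ± 0.54 higher (limma's standard error, 95% interval 0.18 to 2.39) after progressive weaning, with an unadjusted p of 0.024 and a Benjamini-Hochberg adjusted p of 0.996, so that it did not pass the test. The probe met the filter on dim probes only through the progressive arrays, where it was more often high. Its difference between weaning types is therefore not free of the selection. Another 4 probes of TCP11L1, shifted by single bases and so no separate measurements, put at least 31 of 32 mares on the same side, with largest gaps of 0.84 to 1.17 and unadjusted p from 0.00444 to 0.0281. The gap depended on how weak signals were handled: it was 0.31 after normexp background correction and 0.74 in the authors' series table. The 3 probes of other genes most like it were RABIF (r = 0.60), KLHL15 (r = -0.60) and ENSECAT00000017722 (r = 0.59).

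MHC class II transcripts, whose proteins present peptides on B cells, monocytes and dendritic cells, gave the second widest gap among the members. AF348966, a clone of the class II beta chain gene ELA-DQB, had a gap of 7.72 and is not placed on the assembly. Its relative level was -5.05 at the lowest, -4.12 at the median and 4.57 at the highest after brutal weaning, and -4.90, -4.32 and 4.15 after progressive weaning. The higher level, 4.15 to 4.57, was held by brutal 6, brutal 15 and progressive 2 only, while the other 29 mares lay between -5.05 and -3.56. A probe annotated as interleukin 11, ENSECAT00000015199 on chromosome 10, followed it with r = 0.95 and put the same 3 mares apart, at a gap of 1.41, just outside the threshold. NOA1 (r = 0.68) and LETM1 (r = 0.63) came next, with largest gaps of 0.07 and 0.08.

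The unnamed and unplaced probes A_69_P115386 and A_69_P115387, which overlap, put the same 10 mares high, with gaps of 4.20 and 4.64. On A_69_P115387 the level ran from -7.96 through a median of -2.00 to 5.38 after brutal weaning, and from -4.16 through -1.98 to 6.10 after progressive weaning. The 22 lower mares spanned -7.96 to -1.17 and were split again, with 2 mares 2.49 below the rest, so that 3 levels could be seen. The closest probes of other genes were GDA (r = -0.65), CX597529 (r = -0.64) and UCK2 (r = -0.61). The probe shared a run of 18 bases, tccatggaagcaataaat, with A_69_P116051, but the 2 probes put only 20 of 32 mares on the same side.

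The 4 overlapping probes A_69_P116051 to A_69_P116054 also had levels beyond 2. On A_69_P116051, 18 mares lay between 4.06 and 6.64, and the 14 others between -6.85 and -0.20, with a second gap of 3.80 that set 12 of those 14 below the remaining pair of mares. On the other 3 probes that pair stood on the higher side, with 12 mares low. The 14 lower mares of A_69_P116051 were the same 14 as the lower mares of 4 DRB probes set aside by name, in 32 of 32 arrays, and in 31 of 31 arrays of 1 more DRB probe. DRB is the gene of another class II beta chain. A_69_P101451, an unplaced single probe with 11 lower mares and a gap of 4.26, matched those DRB probes in 28 of 31 or 29 of 32 arrays. It had a second gap of 2.88 above its 14 lowest mares, and these were the same 14 mares as the lower ones of A_69_P116051.

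MHC class I proteins present peptides on nearly all cells. Among the members M95409, not placed on the assembly, is annotated as a class I antigen. Another 4 loci lie within a short stretch of chromosome Un that also holds class I probes, from CD471330 at 94064508 to ENSECAT00000011411 at 94204165. LOC100051586 had a gap of 5.34 at high signal. Its level ran from -2.71 through 5.15 to 6.67 after brutal weaning, and from -3.03 through 5.19 to 6.71 after progressive weaning (lowest, median and highest). The 11 lower mares, at -3.03 to -1.15, were all well above background, as were the 21 higher ones at 4.18 to 6.71. Its closest probes were LOC100053918 (r = 0.81), AY176125, annotated as a class I antigen on the same stretch (r = 0.80), and A_69_P117461 (r = -0.78).

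CD471330, a leukocyte cDNA at the start of that stretch, was high in 3 mares only, at 1.86 to 2.42, against -7.27 to -2.77 in the other 29. After brutal weaning its lowest, median and highest levels were -6.70, -5.35 and 1.98, and after progressive weaning -7.27, -6.12 and 2.42. The probe beside it, JL639810, failed the filter on dim probes but put the same 3 mares apart in 32 of 32 arrays, with a gap of 5.66. Its closest probes of other genes were both probes of ENSECAT00000025949 (r = 0.80 and 0.78) and ESYT3 (r = 0.68).

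Within this group of 5 loci, the same bases did not give the same division of mares. M95409, the allele Eqca-N*00101, was low in 3 mares (0.82 to 1.22) and high in 29 (4.87 to 8.98), with a second gap of 1.26. It shared a run of 22 bases, ttgcttccttattgaaaatatg, with ENSECAT00000025949, with 16 of 32 mares on the same side of both. It shared aatatgaatctggat with LOC100051586, with 18 of 32 mares on the same side. ENSECAT00000025949 itself has 2 member probes that differ by G20T, and they put 19 mares low and 13 high alike, with gaps of 2.37 and 2.35. The member probe of ENSECAT00000011411 had 18 lower mares at 3.82 to 5.10 and 14 higher ones at 6.82 to 8.56, with a gap of 1.72 that fell to 1.41 after quantile normalisation. Another tested probe of that transcript, A_69_P037801, shared no run of 15 bases with it. There the levels ran from 5.91 to 7.17, with a largest gap of 0.18, so that 2 levels were not seen.

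With each locus divided at its widest gap, the closest match was that of LOC102151022 and the cartilage cDNA CX599430. LOC102151022 is annotated as a stimulator of nucleotide exchange on the small GTPase Ral. Both loci divided the mares into 18 low and 14 high, identically in 32 of 32 arrays, and their levels followed each other with r = 0.99. On LOC102151022 the lower mares lay between -7.70 and -4.95 and the higher ones between -0.30 and 1.74. On CX599430 they lay between -6.93 and -4.55 and between 0.09 and 2.15. LOC102151022 was at -7.70, -6.40 and 1.74 (lowest, median, highest) after brutal and at -7.53, -0.22 and 1.62 after progressive weaning. CX599430 was at -6.93, -5.34 and 2.15 after brutal and at -6.89, 0.26 and 1.96 after progressive weaning. The higher level was found in 5 of 16 mares after brutal and in 9 of 16 after progressive weaning, and the ranges overlapped. On LOC102151022 only 2 lower mares were well above background, so this probe met the filter on dim probes only through the progressive arrays. Its split between weaning types is therefore not free of the selection. Both loci lie on chromosome Un, at 347236222 to 347236646 and 324709806 to 324710425. Apart from each other, the probes closest to LOC102151022 were ENSECAT00000025719 (r = 0.64) and RAB3GAP1 (r = -0.61), and those closest to CX599430 were DNAJC27 (r = -0.62) and ENSECAT00000025719 (r = 0.61). Among all 496 pairs of loci, each divided at its widest gap, LOC102151022 and CX599430 were the only pair alike in 31 or more mares. Mares on the same or on opposite sides were counted, and the median pair was alike in 20.

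2 loci lay near a gene with a probe that followed them. DN511173, a placental cDNA on chromosome 15 at 48282887 to 48282946, ends 303 bases from a probe of EPCAM, an epithelial adhesion molecule. Its 4 member probes, with gaps of 3.55 to 4.83, put the same 22 mares low and 10 high, and both EPCAM probes with a gap, which failed the filter on dim probes, divided the mares in the same way in 32 of 32 arrays. On A_69_P114900 the lowest, median and highest levels were -7.68, -5.38 and 1.13 after brutal and -6.35, -5.24 and 1.44 after progressive weaning. The closest probes of other genes over the tested set were LOC102148375 (r = -0.67) and 2 probes of ENSECAT00000015349 (r = -0.63 each).

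The 5 overlapping unnamed probes A_69_P105301 to A_69_P105305 lie on chromosome 1, the first at 135866257 to 135866311. They put the same 18 mares low and 14 high, with gaps of 3.55 to 4.80. On A_69_P105301 the levels were -7.81, -0.75 and 1.16 after brutal and -7.56, -6.55 and 0.42 after progressive weaning, and the higher level was found in 9 and 5 mares. No lower mare was well above background there, so the probe met the filter on dim probes only through the brutal arrays. Its split between weaning types is therefore not free of the selection. The probe of LEO1, a subunit of the Paf1 complex of RNA polymerase II, lies 18906 bases away and followed A_69_P105301 with r = 0.86. LEO1 itself ran from 0.43 to 1.65 with a largest gap of 0.16, and at that gap it put 30 of 32 mares on the same side. A probe of TMOD3, which caps actin filaments, lies nearer, at 6365 bases, and put only 12 of 32 mares on the same side at its own largest gap. MAPK12 and CX593174 came next after LEO1 in likeness (r = 0.63 each).

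FAM213B, now PRXL2B, a peroxiredoxin-like enzyme of prostaglandin metabolism, was represented by its own probe and by the cDNA DN510734, with gaps of 4.48 and 4.83. The 9 lower mares lay between -5.50 and -4.23 on DN510734 and the 23 higher ones between 0.61 and 2.30. The levels were -5.50, 1.41 and 2.01 after brutal and -5.13, 1.06 and 2.30 after progressive weaning. The FAM213B probe had 31 arrays, since 1 spot was marked as an outlier, and limma fitted it without that array. The closest probes were TNFRSF14 (r = 0.78), a receptor of the tumour necrosis factor family with a largest gap of 0.15, and 2 probes of RPA1 (r = -0.69 and -0.68).

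Another 2 loci completed the widest gaps. ENSECAT00000008698, an uncharacterised protein on chromosome 20 at 23942828 to 23942887, was low in progressive 1, brutal 2 and brutal 11 only. These 3 mares lay between -7.58 and -7.01, none of them well above background, and the other 29 between -2.05 and 1.61. Its levels were -7.31, -0.17 and 1.61 after brutal and -7.58, -0.50 and 1.30 after progressive weaning. DHX16, an RNA helicase of splicing, ran against it with r = -0.75 and -0.72 on 2 probes, with largest gaps of 0.07 and 0.02, and ST13 with r = -0.71. LOC102148387, an uncharacterised RNA on chromosome Un at 239968099 to 239968158, had 5 member probes with gaps of 3.11 to 4.76. On A_69_P104238 brutal 4, brutal 10, progressive 5 and progressive 16 lay between -7.75 and -6.42 and the other 28 mares between -1.66 and 1.29. Its levels were -7.70, -0.70 and 0.98 after brutal and -7.75, -0.47 and 1.29 after progressive weaning. No probe of another gene followed it beyond an absolute r of 0.65, reached by ENSECAT00000010994 and NUDCD3, with CX596917 at -0.64.

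The remaining loci had gaps below 4. CX601398, a cartilage cDNA on chromosome Un at 74728981 to 74729040, had 5 member probes that put 11 mares low, and in each of them a second gap of 1.88 to 2.77 lay above the 9 lowest. One of these probes, too, had 31 arrays. CD465404, a leukocyte cDNA on chromosome 6 at 37431979 to 37432039, had 5 member probes with 23 lower and 9 higher mares, all well above background, and gaps of 1.66 to 1.83. It lies 55747 bases from a probe of CLEC9A, a C-type lectin receptor of dendritic cells, which put 10 of 32 mares on the same side at its own largest gap. XPA, a protein of nucleotide excision repair on chromosome 25 at 30870632 to 30870691, was also well above background in every mare, with 21 at -3.41 to -1.92 and 11 at -0.28 to 1.1. CD468600, another leukocyte cDNA, had 6 lower mares at -5.62 to -2.62 and 26 higher ones at 0.24 to 3.87.

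Other members stood at low signal. JL637462 was low in 5 mares with a gap of 3.12. WWC1, a scaffold protein of the Hippo pathway, had 2 member probes with gaps of 1.69 and 1.71 and 17 lower mares, none of them well above background. ENSECAT00000008366, annotated as uracil-DNA glycosylase, a base excision repair enzyme, was high in 3 mares at -2.20 to -2.12. C13H16orf13, now METTL26, was low in 3 mares at -5.52 to -3.96. DN507153 had 3 member probes and 4 lower mares, A_69_P116101 had 4 higher mares, and ENSECAT00000005098 had 6 lower mares and a second gap of 1.38. DN507838 had 4 member probes with 3 lower mares, of which progressive 16 was 1. Without that array fewer than 3 lower mares remain, so the rule could no longer count the gap of 2.19 in its first probe. The largest gap that it could still count there was 0.32, which does not show that the other lower mares moved. The smallest gap inside the threshold was 1.523 in CRYBB3, a crystallin of the eye lens. There 0 of 7 lower and 17 of 25 higher arrays were well above background, and the gap was 1.21 after quantile normalisation and 0.09 after normexp. The next smallest were 1.578 and 1.631 in 2 probes of DN507838. The widest gaps just outside were 1.484 in LOC100061784, 1.481 in JL622511 and 1.479 in ENSECAT00000000558.

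Measured differently, many of these gaps narrowed, and some closed. Over the 32 loci, the largest gap of the first probe stayed at 1.5 or more in all 32 with another 75th percentile or with outlier spots kept. It fell below 1.5 in 2 after quantile normalisation, in 8 of the 30 present in the series table and in 12 after normexp correction, whose offset of 50 draws weak signals together. Wide gaps narrowed too. After normexp the gap fell from 4.96 to 1.58 in ENSECAT00000008698, from 4.80 to 1.99 in A_69_P105301, from 4.76 to 1.94 in LOC102148387, from 3.12 to 0.65 in JL637462 and from 2.63 to 1.08 in ENSECAT00000021454. The size of these gaps, and their rank, depended on how the background was handled. TCP11L1, WWC1, DN507153, DN507838, C13H16orf13, A_69_P116101 and ENSECAT00000005098 fell below it in both of the last 2.

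Whether the level differed with weaning was tested with limma on all 26368 probes, since the selection did not use the weaning type beyond the filter on dim probes. Of the 63 member probes, 0 passed an adjusted p of 0.05, as did 0 of all 26368 (0.0%). At an unadjusted p under 0.05 there were 2 members (3.17%), TCP11L1 and ENSECAT00000021454, against 726 of all probes (2.75%), a share near the background. That count of members was 0 after normexp and without slide 4, 1 in the series table and 4 without slide 2. TCP11L1 had passed the filter on dim probes only through the progressive arrays, where it was more often high, so its difference is not free of the selection. ENSECAT00000021454, an uncharacterised transcript on chromosome 2, was at -6.81, -5.73 and -1.39 (lowest, median, highest) after brutal weaning and at -6.35, -4.97 and -1.12 after progressive weaning. Its higher level was found in 1 mare after brutal and 4 after progressive weaning, and its mean was 1.20 ± 0.55 higher after progressive weaning, with an adjusted p of 0.996 by limma. It was well above background on 15 arrays. A probe with fewer than 16 such arrays can meet the filter through only 1 weaning type. The difference of ENSECAT00000021454 is therefore not free of the selection either. The member probe of C7H19orf10 was 1.76 ± 1.22 higher after progressive weaning, with a 95% interval of -0.73 to 4.24 and an adjusted p of 0.996 by limma. That difference was 0.64 without slide 2, 0.99 after normexp and 2.35 without progressive 16, and the adjusted p was 0.948 or more in these 3 fits by limma. On the shifted C7H19orf10 probes and their near copies, well above background on every array, the difference was only -0.02 to 0.16. Over the 63 members, 29 were higher and 34 lower after progressive weaning (54.0% lower, median difference -0.15). That count takes overlapping probes of a locus as separate members. With 1 probe per locus, 16 of the 32 loci were higher and 16 lower, with a median difference of 0.035, so the members showed no lean by locus. Over all tested probes 55.7% were lower, with a median difference of -0.014. The median absolute difference was 0.54 for the members and 0.072 for all tested probes. The selection asked for a wide spread between mares, which widens any difference of means, so this contrast says nothing about weaning.

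The 2 levels were spread over weaning types, slides and mares. Mares of both weaning types were found on both sides of every one of the 32 loci, and in 24 loci the number of higher mares differed by at most 2 between the types. Both levels occurred on all 4 slides in 18 loci, on 3 slides in 9 and on 2 slides in 5. Between slides, limma's F test called 0 of 63 members and 2 of all tested probes (0.00758%), and at an unadjusted p under 0.05 there was 1 member, CRYBB3 (1.59%), against 6.8% of all probes. Between the 2 rows in which arrays stand on a slide, limma called 0 members and 0 of all probes (0.0%), and 1 member, A_69_P105302, against 5.89% of all probes had an unadjusted p under 0.05. Across loci, a mare stood at the lower level in 11 to 19 of 32, with a median of 14. The array progressive 16, with 851 of the 2483 spots marked as outliers, stood apart from the rest, and without it 60 probes passed the rule, 59 of them among the 63.

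Where a probe had a spot at 2 places on the array, both places gave nearly always the same side. This held for 26 members, with 831 array values measured by both spots, of which 1 had its spots on different sides. The rule used the mean of both spots, so probes whose spots disagreed tended to be left out. The count is therefore no independent check of the sides. In 11 loci no lower mare had the probe well above background, and in 6 loci every lower mare did. The median gap was 3.55 over the member probes, which the selection fixed, and the median largest gap over all tested probes was 0.13.

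The members shared some features that the selection did not use. Of the 63, 22 (34.9%) lie on chromosome Un against 17.7% of all tested probes, 8 (12.7%) are not placed on the assembly against 2.34%, and 13 (20.6%) carry only a probe name against 3.35%. The median GC content was 36.7% in the members and 41.7% in all tested probes. These shares have no test, because probes of a locus overlap.

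Genes from a list of 22 with large inherited differences of level in human blood were looked up in the same way. Of these, 10 had a probe that passed the filter, and 0 of the 25 such probes was a member, against 0.239% of all tested probes. The widest gap among them was 1.41 in HP, haptoglobin, which binds free haemoglobin, with levels from -6.70 to 0.62. ERAP2, a peptidase that trims peptides for MHC class I, and OAS1, an interferon-induced enzyme, each had a largest gap of 0.29. Among 340 tested probes whose gene name starts like those of multigene families, 1 passed the gap (0.294%), the EQMHCC1 probe set aside by name. Such a choice by name does not show that a gene has near-identical copies. It also leaves out the MHC probes of DRB, AF348966 and M95409, so the share says little about multigene families. Over all tested probes the share was 0.277%. The median largest gap was 0.124 over these 340 probes.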

How the data were processed

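Total RNA of whole blood from 32 mares was measured on Agilent arrays in 1 colour, Cy3. Per spot, the deposited scanner files give an intensity, already background-subtracted by the extraction software (Agilent Feature Extraction 10.10.1.1, per the file headers). The deposited series table holds log2 values, normalised by the authors with a tool not given in the sources used here. It was used as an alternative only. Of 62976 spots, 1319 controls and 2483 outlier values over all arrays were left out. Log2 of the processed intensity over the array's 75th percentile was averaged over the spots of a probe. The only replication is 1 array per mare, and the number of arrays limits the precision. Weaning type, slide and array row were tested with lmFit and eBayes of limma 3.58.1 in R 4.3.3, two-sided, with Benjamini-Hochberg adjustment over all tested probes and a threshold of 0.05. The fits and the rule were tested on simulated data. Coordinates and gene names are those of the files, on EquCab1, and current symbols came from a reference table or general knowledge.

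The members and lists were chosen with earlier results of these data known. Named were the markers C7H19orf10 and TCP11L1, the 25 members with the largest gap, genes with 2 or more member probes, groups that split the same mares and members past 0.05 in a fit. All other loci were named too. Values in each weaning type were given for the markers and the 12 loci with the largest gap, with the 3 tested probes of other genes of largest absolute Pearson r over 32 arrays, as a description. A second gap was 0.75 or more. Alternatives were other normalisations and background correction, the series table, outlier spots kept, other gap, side and filter limits, slides as a block or left out, and progressive 16 left out.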

Additional observations from a re-analysis of the deposited data

How the results depend on the processing

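No member probe was called between weaning types under any of the 13 alternatives run, nor was any other tested probe, and no member was called between slides under any of the 4 run. The number of member probes stayed within 1.5 times of 63 except under 4 settings. It was 108 with a gap of 1.0, 99 with 2 arrays on a side, 20 when all 16 arrays of a type had to be well above background, and 284 with no filter on dim probes. Without slide 1, 2, 3 or 4 it was 64, 58, 70 and 59. The calls between slides over all probes rose from 2 to 7 with the other 75th percentile, 8 after quantile normalisation, 8 after normexp and 4 without progressive 16, and the cause was not tested. Of 190 gaps recomputed, 167 stayed past 1.5. Of 169 weaning differences recomputed for 14 members, none passed the test in any setting, and 9 changed sign: LOC100051586 was 0.25 without slide 1 and 0.33 without slide 2, ENSECAT00000008698 was -0.12 without slide 3 and -0.05 without slide 4, DN510734 was 0.48 without slide 1 and 0.54 without slide 2, LOC102148387 was -0.28 without slide 1 and -0.45 without slide 3, and CD471330 was 0.53 without slide 4. No paired analysis was possible because the mares of the 2 weaning types carry no shared number or link in the labels. Signal over background limits what weak probes show: lower levels not well above background are only upper bounds.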

Other observations

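Outside the members, 221 probes had a gap of 1.5 or more and failed the filter on dim probes, and 218 of them belong to no member gene. In 217 of the 221 the higher side held at most 5 mares. JL639810, with the widest gap among them, was at 1.68 to 2.23 in 3 mares and at most -3.97 in the other 29. A probe of CYP2C92, a cytochrome P450 enzyme, was high in 4 mares, with a gap of 3.32. A probe of ENAM, a protein of tooth enamel, was high in 3 mares, with a gap of 3.75, and 1 of HTR5A, a serotonin receptor, in 3 mares with a gap of 3.28. They were picked with their values in view, and no test was made.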
